A study of Mus musculus with 9 samples.

Results

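The red cell membrane skeleton genes examined here were Sptb (beta-spectrin), Ank1 (ankyrin-1), Dmtn (dematin), the adducins Add1, Add2 and Add3, and the tropomodulins Tmod1 and Tmod3. These 8 genes were taken by symbol from the 27999 rows of the deposited gene count table, where each symbol stood on 1 row, and all 8 were among the 9978 genes that passed the filter on low counts. The data are 9 RNA libraries from G1E, a murine line of erythroid progenitors without working endogenous GATA1, and every group shares that defect. The cells were grown with murine stem cell factor (SCF) and erythropoietin (EPO) and were infected with virus made in 293T cells from the HMD vector, which was empty in the first group, held wildtype human GATA1 cDNA in the second and held a mutant form in the third. Each group held 3 libraries, described by the series as biological replicates. The line is 1 cell line under forced expression of a human cDNA. Which mutation it was, how long after infection RNA was taken and whether infected cells were selected is not given in the sources used.

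The membrane skeleton is a protein mesh that lies under the red cell membrane and gives the cell its elasticity. Spectrin, a long flexible molecule built of alpha and beta chains, forms the strands of the mesh. Ankyrin ties beta-spectrin to the anion exchanger band 3 in the lipid bilayer. At the nodes, or junctional complexes, spectrin tails are held to short actin filaments by protein 4.1, adducin and dematin. Adducin caps the fast-growing end of these filaments and tropomodulin caps the slow-growing end. Inherited defects of spectrin and ankyrin are known causes of hereditary spherocytosis. GATA1 is the transcription factor that drives maturation of erythroid progenitors, in the course of which the skeleton is assembled.

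Library totals ranged from 11364358 to 17289307 counts. Human GATA1 RNA, in CPM (counts divided by the library's total and put on 1 scale), ran from 598 to 706 in mutant and from 715 to 921 in wildtype libraries, against 2 counts in all in the empty vector libraries. The 8 erythroid progenitor markers (Kit, Gata2, Epor, Tfrc, Klf1, Tal1, Gfi1b, Nfe2) had counts in every group, with a summed CPM of 3150 to 3330 in empty vector, 3160 to 3357 in mutant and 3891 to 4323 in wildtype libraries. With the wildtype, Tfrc, Klf1, Epor and Tal1 of these were higher than with the empty vector, and Kit (mean 248 CPM against 661 CPM) and Gata2 (103 CPM against 328 CPM) were lower. The 8 megakaryocyte and platelet markers, of which Vwf was at 0 throughout, summed to 64.0 to 69.9, 46.3 to 52.1 and 30.6 to 35.9 CPM in the same order. The 6 mast cell and basophil markers summed to 30.9 to 36.3, 11.1 to 14.5 and 3.95 to 5.39 CPM, with Mcpt8 and Tpsb2 at 0 throughout and Fcer1a at 0 with either GATA1. The 6 granulocyte and monocyte markers summed to 0.880 to 1.74, 1.99 to 2.66 and 0.289 to 0.960 CPM, with Elane, Ctsg and Itgam at 0 throughout, and the 6 lymphoid markers at most 0.0963 CPM. For Itgam only the first row with its symbol was read, and any other such row is not in the sum. The megakaryocyte and mast cell sums were apart in all 3 groups, the erythroid progenitor sums were apart in the wildtype group and the granulocyte and monocyte sums in the mutant group; their part in the results on the skeleton genes was not tested. Mutant replicates 1 and 2 stood close together. Over genes with at least 20 counts their mean chi-square per gene was 2.20, where sampling noise alone gives 1, against 15.0 to 55.5 for the other replicate pairs. They were kept as separate libraries, and the edgeR fits were also computed with these libraries summed into 1. Ratios of genes within a library, shares, levels per kilobase and overlaps of groups were not recomputed in this way.

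Wildtype GATA1 raised 6 of the 8 membrane skeleton genes, where 11.4% of all tested genes were higher, and lowered 1, where 11.9% were lower. Dmtn, Tmod1, Ank1, Sptb, Add2 and Add1 rose, with fold changes from 269 down to 1.46, Add3 fell to about 0.497 of its level, and Tmod3 was not called. Against the empty vector, none of the 8 was called with the mutant, where 0.21% of all genes were higher and 0.0601% lower. The threshold used was an adjusted p under 0.05 in edgeR's quasi-likelihood test over all genes. DESeq2 called 4 of the 8 higher. With no low-count filter, or without empty vector replicate 3, edgeR called 4 higher and 1 lower. Calls over all genes rose in each of these fits too. Between the forms, 6 of the 8 genes were lower with the mutant than with the wildtype (12.7% of all genes), Add3 was higher (13.2% of all genes) and Add1 was not called. Human GATA1 RNA was lower in every mutant library than in every wildtype library. The form of GATA1 and its RNA level therefore cannot be told apart in this comparison.

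**Figure D1:**
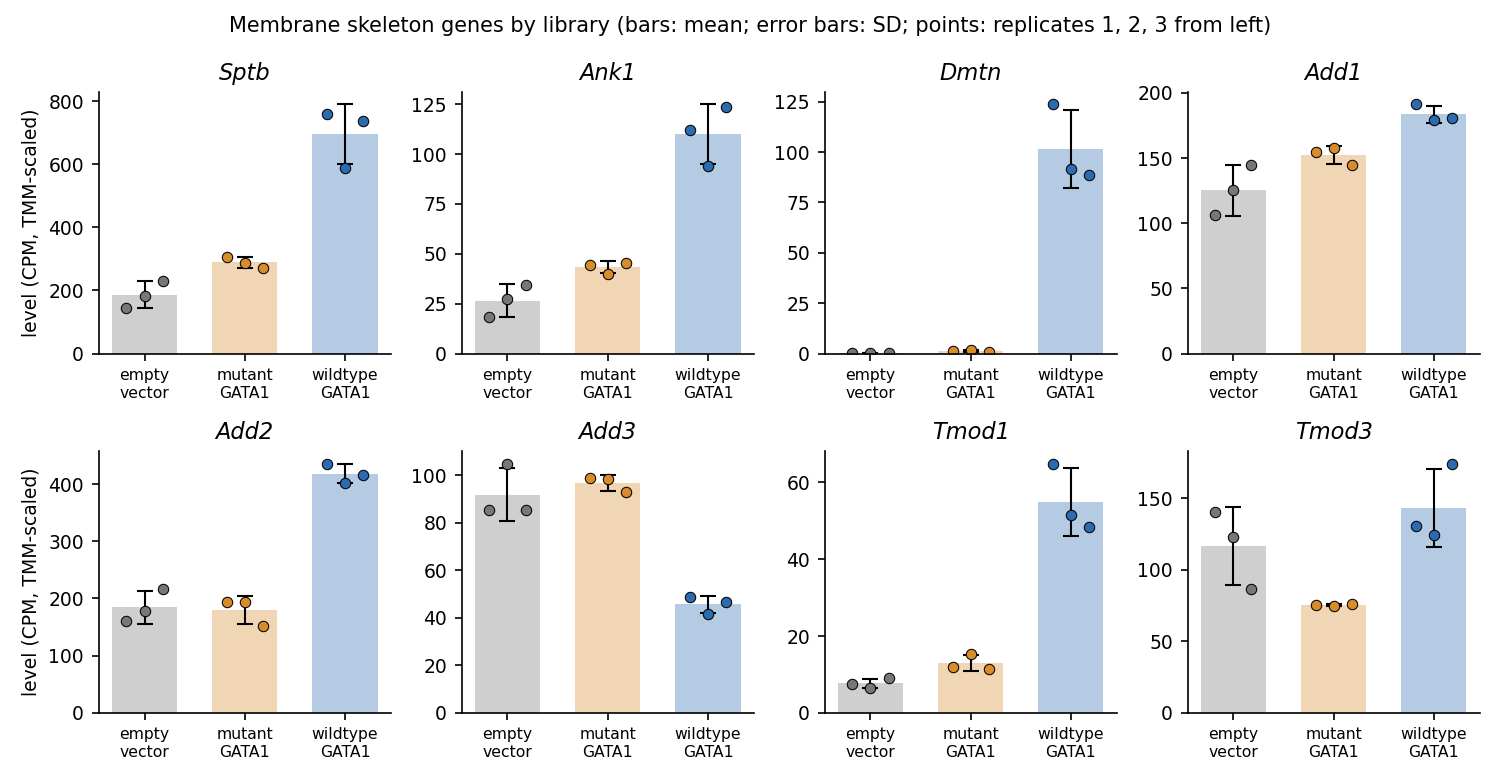
Level of each membrane skeleton gene in CPM (vertical axes start at 0 and differ between panels) in the empty vector, mutant and wildtype groups; bars are means, error bars SD and points the 3 libraries of a group. Dmtn is near 0 in all 6 libraries without wildtype GATA1, and Add3 is the 1 gene whose wildtype libraries, at 41.6 to 48.7 CPM, lie below all others.

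Levels below are CPM on TMM-scaled library sizes, a scaling that corrects for a few very abundant transcripts taking a large share of the reads, and means are followed by the SD over 3 libraries. They compare 1 gene across libraries; different genes are set against each other only per kilobase of exon, where this is stated. RNA was pooled from many cells, so a change in the share of expressing cells and a change in RNA per cell cannot be told apart.

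Sptb encodes the erythroid beta-spectrin chain (GRCm38, chromosome 12, 76580488 to 76710547, minus strand). Its level was 145, 182 and 230.5 CPM in empty vector replicates 1, 2 and 3, 307, 288 and 272 CPM in the mutant replicates, and 761, 588 and 739 CPM in the wildtype replicates. The 3 groups did not overlap, and the mutant libraries lay between the others. The mean rose from 186 ± 42.6 to 696 ± 94.2 CPM with the wildtype, a log2 fold change of 1.90 ± 0.16 (SE, adjusted p 3.68e-06). The mutant mean of 289 ± 17.7 CPM was 0.64 ± 0.16 above the empty vector on the log2 scale, a difference that was not called (adjusted p 0.173, 95% interval 0.29 to 0.98). It was 41.5% of the wildtype mean, a difference of −1.27 ± 0.16 (adjusted p 0.000118).

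Ank1, which encodes ankyrin-1, the linker between spectrin and band 3 (chromosome 8, 22974844 to 23150497, plus strand), followed the same course. It was read at 18.2, 27.2 and 34.3 CPM in the empty vector libraries, 44.4, 39.7 and 45.3 CPM in the mutant libraries and 112, 94.1 and 124 CPM in the wildtype libraries. Again no group overlapped another. The wildtype rise was 4.13-fold (log2 fold change 2.05 ± 0.20, adjusted p 9.49e-06), and the mutant stood at 39.3% of the wildtype mean (−1.35 ± 0.19, adjusted p 0.000277). Against the empty vector the mutant had 0.70 ± 0.19 and was not called (adjusted p 0.236, 95% interval 0.28 to 1.12). Of the total difference in mean CPM between wildtype and empty vector, the mutant made up 20.2% for Sptb and 19.9% for Ank1.

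Annotated exons of both genes were checked for overlap with neighbours, since the library method keeps no strand. Single reads were not examined. Sptb shares 1 exon base with Plekhg3, a gene on the opposite strand that ends where Sptb ends and whose level went the other way, from 7.48 ± 1.78 CPM in the empty vector libraries to 1.33 ± 0.520 CPM in the wildtype libraries (log2 fold change −2.50 ± 0.30, adjusted p 6.5e-05). Ank1 shares 6.37% of its exon bases with the antisense gene Gm15816, which had at most 4 counts in any library. Of the adducins, Add1 shares 0.736% of its exon bases with the miRNA gene Mir7036b on its own strand. Add2 shares 3.51% with the antisense gene Gm44089, which had at most 3 counts in any library.

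Dmtn encodes dematin, which bundles actin filaments and fastens the junctional complex to the membrane (chromosome 14, 70601263 to 70636048, minus strand). It had 5, 4 and 7 counts in the empty vector libraries, 24, 27 and 10 counts with the mutant, and 1545, 952 and 1009 counts with the wildtype. These correspond to 0.367, 0.280 and 0.451 CPM, to 1.36, 1.63 and 0.649 CPM, and to 124, 91.7 and 88.6 CPM. The wildtype libraries stood far above all others, and the mutant libraries, though few in counts, did not overlap the empty vector. The log2 fold change with the wildtype was 8.07 ± 0.30 (adjusted p 2.39e-09), the 12th largest of the 9978 tested genes. The mutant level, 1.21 ± 0.505 CPM, was 1.2% of the wildtype mean of 101 ± 19.4 CPM (−6.36 ± 0.26, adjusted p 1.37e-08). Against the empty vector the mutant value was 1.71 ± 0.42 and was not called (adjusted p 0.17, 95% interval 0.80 to 2.62). In share of the wildtype rise in CPM, the mutant reached 0.838% for Dmtn.

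The adducins, which join spectrin to actin as alpha-beta or alpha-gamma pairs, split in direction. Add1 (alpha-adducin, the partner in either pair; chromosome 5, 34573664 to 34632308) was read at 106, 125 and 145 CPM in the empty vector libraries, 154, 158 and 144 CPM in the mutant libraries and 191, 179 and 181 CPM in the wildtype libraries. The wildtype libraries were the highest and the mutant overlapped the empty vector. Its rise with the wildtype was the smallest of those called, 1.46-fold (log2 fold change 0.55 ± 0.12, adjusted p 0.00583). The mutant was called neither against the empty vector (0.28 ± 0.12, adjusted p 0.379, 95% interval 0.01 to 0.54) nor against the wildtype (−0.27 ± 0.12, adjusted p 0.118). Fitted with the replicate numbers as a block, in the mutant and wildtype libraries alone, the last difference was called (−0.27, adjusted p 0.00915). That fit was chosen after seeing the data and was the only 1 of 18 alternatives to call it. Calls over all genes rose in it too, from 1267 to 2417 lower and from 1313 to 2323 higher.

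Add2 encodes beta-adducin, the partner of Add1 in mature red cells (chromosome 6, 86028681 to 86124409). Its level was 159.6, 178 and 216 CPM in the empty vector libraries, 194, 193 and 152 CPM in the mutant libraries and 436, 402 and 416 CPM in the wildtype libraries. The wildtype libraries were all higher than the rest, and the mutant and empty vector libraries overlapped. The wildtype rise was 2.27-fold (1.18 ± 0.14, adjusted p 4.49e-05), the mutant lay at 43.0% of the wildtype mean (−1.22 ± 0.14, adjusted p 4.27e-05), and the mutant differed from the empty vector by −0.04 ± 0.14 (adjusted p 0.923, 95% interval −0.33 to 0.26). Whether the mutant's effect differed between Add2 and the other members was not tested.

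Add3, which encodes gamma-adducin, the widely expressed alternative to beta-adducin (chromosome 19, 53140443 to 53247399), fell. It was read at 85.2, 105 and 85.4 CPM in the empty vector libraries, 99.0, 98.5 and 92.7 CPM in the mutant libraries and 48.7, 41.6 and 46.5 CPM in the wildtype libraries. The wildtype libraries were all lower than the rest. The fall was −1.01 ± 0.12 on the log2 scale (adjusted p 6.95e-05), the mutant was 2.12-fold above the wildtype (1.08 ± 0.12, adjusted p 4.61e-05), and the mutant differed from the empty vector by 0.08 ± 0.12 (adjusted p 0.799, 95% interval −0.19 to 0.34).

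Because a ratio of genes within a library does not depend on how libraries are scaled, adducin ratios were also compared. The log2 ratio of Add3 to Add1 counts was −0.44 ± 0.28 with the empty vector, −0.65 ± 0.02 with the mutant and −2.01 ± 0.08 with the wildtype (SD, n = 3), a 2.96-fold lower ratio with the wildtype than with the empty vector. The log2 ratio of Add2 to Add1 was 0.56 ± 0.04, 0.23 ± 0.14 and 1.19 ± 0.02 in the same order. The wildtype libraries lay apart from the others for each ratio, and the Add2 to Add1 ratio of the mutant lay below that of the empty vector in every library. Each of these group differences had p = 0.1 in a two-sided exact permutation test (0.1125 adjusted over 9 ratios), the smallest that 3 against 3 libraries allow, except Add3 to Add1 between mutant and empty vector (p = 0.4). Per kilobase of exon, Add1, Add2 and Add3 made up 30.9%, 38.4% and 30.6% of adducin signal with the empty vector, 35.1%, 34.9% and 30.0% with the mutant, and 30.7%, 59.0% and 10.2% with the wildtype. With the longest transcript as length, these shares were 38.8%, 31.7% and 29.5% with the empty vector. They were 43.3%, 28.4% and 28.3% with the mutant, and 39.7%, 50.2% and 10.1% with the wildtype. Which adducin was highest with the empty vector thus depends on the length used.

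**Figure D2:**
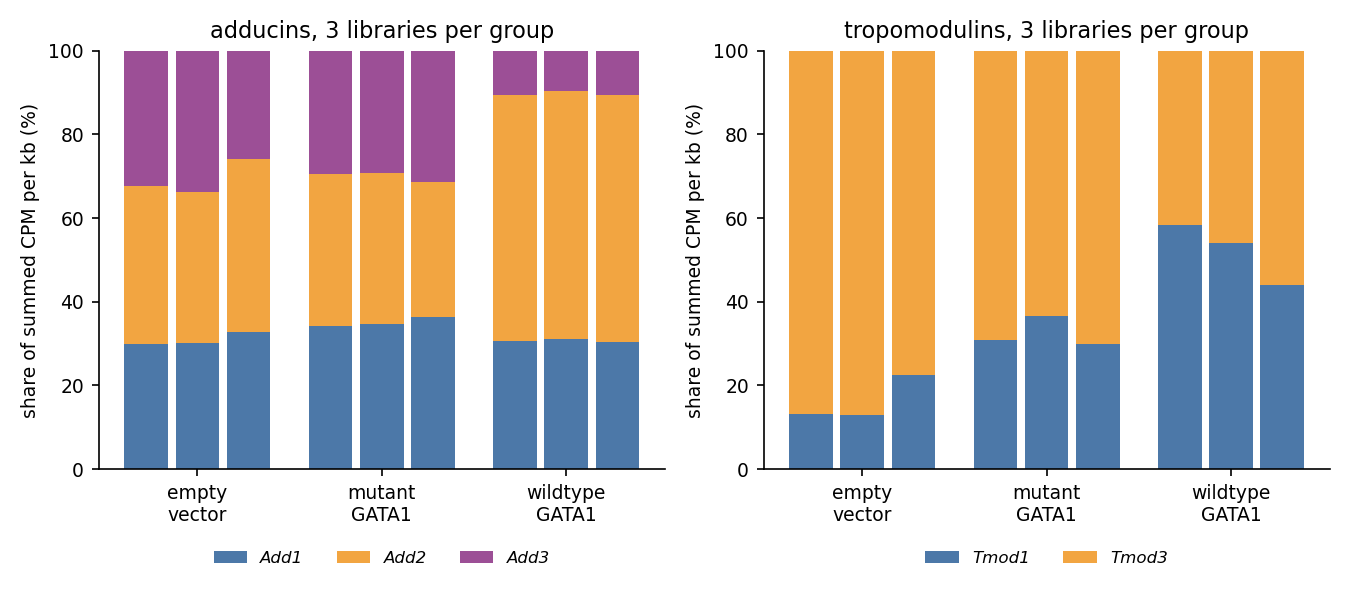
Share of the summed CPM per kilobase of exon (%) taken by each adducin and each tropomodulin, 1 stacked bar per library and 3 libraries per group. Add3 holds 9.72% to 10.5% of adducin signal in the wildtype libraries and 26.0% to 33.8% in the others, and Tmod1 holds 44.0% to 58.4% of tropomodulin signal in the wildtype libraries. With the longest transcript as length, which is not drawn, that Tmod1 share is 25.6% to 38.1%.

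Upstream sequence is shown for the genes that went in opposite directions, as the 250 bases before a RefSeq transcription start (GRCm38.p6, 5′ to 3′ on the gene's strand). RefSeq entries matched 5 of the 8 genes, with 7 starts; Ank1, Dmtn and Tmod3 did not match. Capitals mark matches on either strand to AGATAA, to TGATAA, to AGATAG and to TGATAG, which are forms of the site bound by GATA factors, or to CACCC, a core bound by Kruppel-like factors; no match of one kind overlaps another. The windows are those of Sptb (chr12:76710548-76710797, minus strand), of Add2 (chr6:86028431-86028680, plus strand) and of the most 3′ of the 3 Add3 starts (chr19:53143747-53143996, plus strand).
Sptb: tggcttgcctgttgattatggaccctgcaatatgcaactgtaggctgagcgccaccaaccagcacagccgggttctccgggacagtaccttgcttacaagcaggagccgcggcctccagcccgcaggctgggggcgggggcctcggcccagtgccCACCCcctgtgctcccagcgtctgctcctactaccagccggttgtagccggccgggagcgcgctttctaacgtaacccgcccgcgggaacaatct
Add2: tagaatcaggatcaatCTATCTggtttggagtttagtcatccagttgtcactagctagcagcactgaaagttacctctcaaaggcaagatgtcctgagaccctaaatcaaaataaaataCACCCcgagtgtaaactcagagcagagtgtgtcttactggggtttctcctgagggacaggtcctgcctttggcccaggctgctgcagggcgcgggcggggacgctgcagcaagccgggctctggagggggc
Add3: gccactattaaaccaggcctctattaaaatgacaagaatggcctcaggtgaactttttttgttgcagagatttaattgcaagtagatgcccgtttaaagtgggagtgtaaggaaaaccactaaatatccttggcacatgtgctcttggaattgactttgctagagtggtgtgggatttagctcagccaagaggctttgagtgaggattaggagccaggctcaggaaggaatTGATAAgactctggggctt

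A GATA form was found in 2 of the 7 windows, against 26.5% of all 32851 RefSeq starts with a window of this length. In Add2, which rose, AGATAG stands on the minus strand. The window as printed reads CTATCT there, the first base of which lies 234 bases before the start. In Add3, which fell, TGATAA stands on the plus strand 19 bases before the start. The windows of Sptb, Add1, Tmod1 and the other 2 starts of Add3 hold none of these GATA forms. All 250 bases of the Tmod1 window lie in annotated exon of Tmod1 itself. CACCC was found in 5 of the 7 windows, against 52.0% of all starts. These matches are letters in a sequence, and no binding was measured here.

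The tropomodulins also shifted in ratio with the wildtype, but there Tmod1 was called higher and Tmod3 was not called. Tmod1, the isoform of mature red cells (chromosome 4, 46038935 to 46116032), was read at 7.55, 6.50 and 8.95 CPM in the empty vector libraries, 12.0, 15.3 and 11.5 CPM in the mutant libraries and 64.9, 51.6 and 48.3 CPM in the wildtype libraries. No group overlapped another, with the mutant libraries closer to the empty vector. The rise with the wildtype was 7.15-fold (2.84 ± 0.19, adjusted p 2.93e-07), second to Dmtn among the 8 genes. The mutant stood at 23.5% of the wildtype mean (−2.09 ± 0.18, adjusted p 3.98e-06) and at 0.75 ± 0.18 above the empty vector, which was not called (adjusted p 0.17, 95% interval 0.35 to 1.15). Of the wildtype rise in CPM it reached 11.1%. Tmod1 shares 32.6% of its exon bases with Tstd2 on the opposite strand, and without strand such reads cannot be assigned. Tstd2 itself was at 52.8 ± 2.66, 52.9 ± 3.51 and 43.6 ± 1.41 CPM in empty vector, mutant and wildtype, and was not called in any comparison.

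Tmod3, the broadly expressed tropomodulin of nucleated erythroblasts and other cells (chromosome 9, 75497707 to 75559657), did not follow Tmod1. It was read at 140, 123 and 86.5 CPM in the empty vector libraries, 75.6, 74.8 and 76.2 CPM in the mutant libraries and 131, 124 and 174 CPM in the wildtype libraries. Mutant libraries were the lowest, while the wildtype and empty vector libraries overlapped. The wildtype value was 0.30 ± 0.17 and was not called (adjusted p 0.236, 95% interval −0.08 to 0.67). The mutant was lower than the wildtype (−0.92 ± 0.17, adjusted p 0.00214), with a value of −0.63 ± 0.17 against the empty vector that was not called (adjusted p 0.236, 95% interval −0.999 to −0.25). The log2 ratio of Tmod1 to Tmod3 counts was −3.90 ± 0.55 with the empty vector, −2.56 ± 0.24 with the mutant and −1.38 ± 0.43 with the wildtype (SD, n = 3), and all 3 pairs of groups were apart (exact permutation p = 0.1 each, the smallest possible). Per kilobase of exon, Tmod1 made up 16.3%, 32.5% and 52.1% of tropomodulin signal in the same order. The exon length used for Tmod1 includes the bases shared with Tstd2, and their effect on these shares was not tested. With the longest transcript as length, its shares were 7.93%, 17.5% and 32.6%. Tmod1 rose in share with either length, but which tropomodulin was higher with the wildtype depends on the length used.

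Set against all genes, 6 of 8 called higher with the wildtype compares with 11.4% of the tested genes, and 1 of 8 called lower with 11.9%. The 8 genes, and the lists further below, were chosen with earlier results of these data known. Such comparisons with all genes are therefore descriptions and no independent test. The groups did not overlap for 7 of the 8 genes, against 32.6% of all genes. Scaled by library totals instead of TMM, calls over all genes went from 1137 higher and 1186 lower to 901 and 1500. The median log2 fold change of the 8 was 1.54, against −0.04 over all genes. The counts of 6 and 1 were the same in all 17 alternative fits. The highest adjusted p over those alternatives was 0.0302, that of Add1.

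With the mutant against the empty vector, 0 of 8 were called higher, where 0.21% of all genes were, and 0 of 8 lower, where 0.0601% were. Unadjusted p-values under 0.05 were found for 6 of the 8, namely Sptb, Ank1, Dmtn, Add1 and Tmod1 on the higher side and Tmod3 on the lower. The groups did not overlap for 5 of the 8 (Sptb, Ank1, Dmtn, Tmod1 and Tmod3), against 15% of all genes, and the median log2 fold change was 0.46, against −0.000522 over all genes. DESeq2 called 4 higher and 0 lower, with log2 fold changes of 0.64 for Sptb, 0.71 for Ank1, 1.74 for Dmtn and 0.76 for Tmod1 (adjusted p 0.027, 0.0452, 0.0182 and 0.0238). Without empty vector replicate 3, which had the highest level of Sptb, Ank1, Dmtn, Add1, Add2 and Tmod1 in its group, 4 were higher and Tmod3 was lower in edgeR, while the number of calls over all genes went from 21 to 227 higher and from 6 to 610 lower. With no low-count filter the counts were also 4 and 1, from 119 higher and 296 lower over all genes. With mutant replicates 1 and 2 summed, 0 were called.

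Between mutant and wildtype, 6 of 8 were called lower, where 12.7% of all genes were, and 1 of 8 higher, where 13.2% were. The groups did not overlap for any of the 8, against 44.2% of all genes, and the median log2 difference was −1.24, against −0.01 over all genes. These counts were 6 and 1 with mutant replicates 1 and 2 summed as well. With the replicate block in the mutant and wildtype libraries, a fit chosen after seeing the data, 7 were lower and 1 higher, and calls over all genes went from 1267 to 2417 lower and from 1313 to 2323 higher. Scaled by library totals, they were 918 lower and 1823 higher. This comparison and the ones above share libraries, so the values for a gene are not independent of each other.

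**Figure D3:**
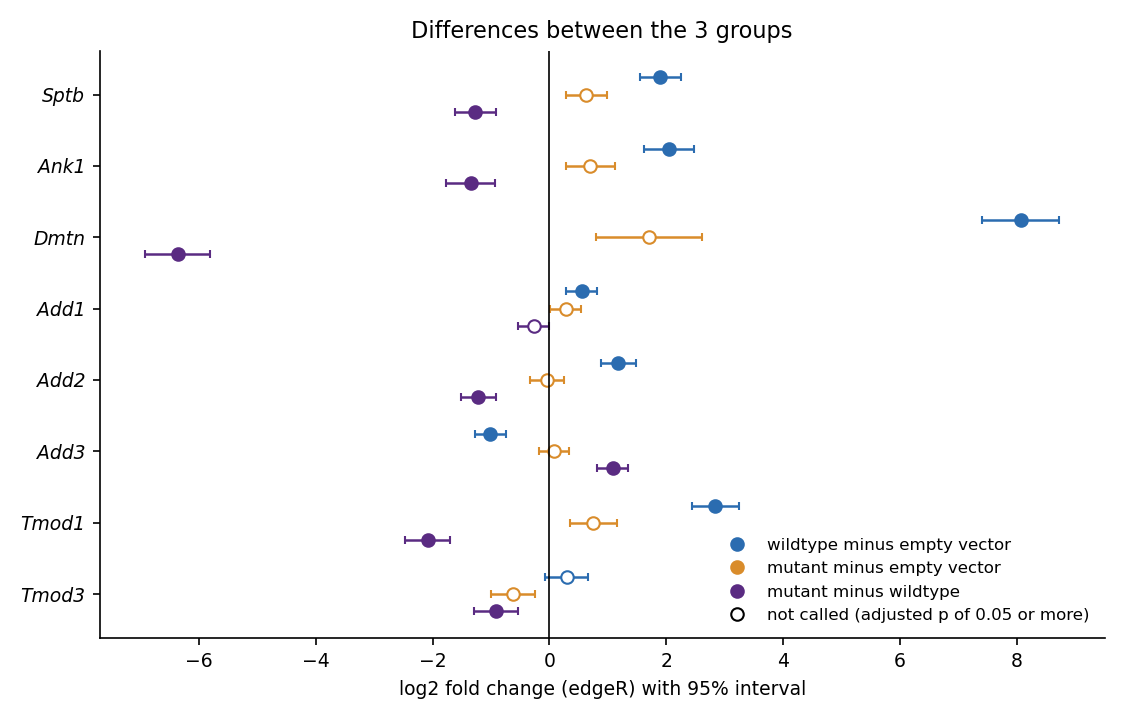
Log2 fold change (horizontal axis, edgeR) with its 95% interval for each membrane skeleton gene in the 3 comparisons; filled points are called at an adjusted p under 0.05 and open points are not. The wildtype points run from −1.01 for Add3 to 8.07 for Dmtn, and all 8 mutant against empty vector points are open.

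The order of the genes by level changed too. Per kilobase of exon, Dmtn was the lowest of the 8 with the empty vector (0.0373 ± 0.00872 CPM per kb) and with the mutant (0.124 ± 0.0515), but with the wildtype it reached 10.3 ± 1.98 CPM per kb, above Add3 (7.15 ± 0.571) and Ank1 (8.12 ± 1.10). Sptb was the highest with the wildtype at 57.3 ± 7.76 CPM per kb, followed by Add2 at 41.2 ± 1.66, Add1 at 21.5 ± 0.764, Tmod1 at 13.9 ± 2.22 and Tmod3 at 12.8 ± 2.42. From Tmod1 downwards, neighbours in this order (Tmod1, Tmod3, Dmtn, Ank1, Add3) differed by less than the sum of their SDs. The exon length used for Tmod1 includes bases shared with Tstd2, and their effect on its place was not tested. With the length of the longest transcript in place of all exons, Sptb was still highest and Add3 lowest with the wildtype, and Dmtn lowest in the other groups; Tmod3, whose exons sum to 11151 bases against 3918 for its longest transcript, moved from the fifth place to the first with the empty vector.

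The genes whose pattern over the 9 libraries was most like that of each skeleton gene were found by Pearson correlation of log2 CPM against 9333 other tested genes. The nearest to Dmtn was Epb42, protein 4.2, a band 3 binding protein of the same skeleton (r = 0.998), whose mean was 16.9 CPM in empty vector and 88.3 CPM in wildtype libraries. For Sptb it was Ube2o, a ubiquitin-conjugating enzyme (r = 0.997), and for Ank1 it was Sptb (r = 0.993). Add1 was nearest to Samd14 (r = 0.996), Add2 to Foxh1 (r = 0.992), Tmod1 to Cercam (r = 0.995) and Tmod3 to Spc25 (r = 0.982). Add3 was nearest to Lcp1, the actin-bundling protein L-plastin of leukocytes (r = 0.991), whose mean was 5.30 CPM in empty vector and 1.86 CPM in wildtype libraries. These correlations describe 3 groups of 3 libraries and are high for many genes, with 262 genes above 0.95 for Dmtn and 16 for Tmod3.

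Other subunits and linkers of the skeleton were taken from a list of 21 genes, of which 12 were tested. With the wildtype, 3 rose and 4 fell, where 11.4% of all genes were higher and 11.9% lower, and the median log2 fold change was −0.14, against −0.04 over all genes. Among those that rose were Epb42 (2.38 ± 0.13, adjusted p 5.8e-08) and Mpp1, the membrane scaffold p55 that binds protein 4.1 (1.42 ± 0.11, adjusted p 2.04e-06). Those that fell were Sptbn1, a nonerythroid beta-spectrin (−1.15 ± 0.16, adjusted p 0.00024), Sptan1, the nonerythroid alpha-spectrin (−1.56 ± 0.28, adjusted p 0.00123), Ank2, ankyrin-2 (−0.78 ± 0.24, adjusted p 0.0308), and Tpm3, a tropomyosin (−0.63 ± 0.11, adjusted p 0.00135). Sptbn1 was read at 26.9, 36.0 and 36.3 CPM in the empty vector libraries, 34.2, 32.1 and 41.6 CPM in the mutant libraries and 15.0, 13.6 and 16.1 CPM in the wildtype libraries, where the wildtype libraries were all lower. Sptb, the erythroid beta-spectrin, rose where Sptbn1 fell.

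With the mutant against the empty vector 0 of these 12 were called in edgeR or in DESeq2 and 3 had an unadjusted p under 0.05. Without empty vector replicate 3, and likewise with no low-count filter, 1 was called higher. Epb41, the gene of protein 4.1 itself, had 0.29 ± 0.14 with the wildtype (adjusted p 0.151) and 0.36 ± 0.14 with the mutant (adjusted p 0.355). Against the wildtype, 4 genes were higher with the mutant, Sptbn1, Sptan1, Ank2 and Tpm3, and 2 were lower, Epb42 (−2.07 ± 0.13) and Mpp1 (−1.30 ± 0.11). The 9 untested genes of the list were left out because of low counts, and of these Epb41l2, Epb41l3 and Tpm2 had no count in any group.

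Of 16 transmembrane partners of the skeleton, 14 were tested, and with the wildtype 10 rose and 0 fell, where 11.4% of all genes were higher and 11.9% lower (10 with an unadjusted p under 0.05; 1 fell without wildtype replicate 3). Their median log2 fold change was 0.86, against −0.04 over all genes. Slc4a1, the band 3 anchor of ankyrin, had the largest value of the list, 6.43 ± 0.17, and Rhd, a Rh blood group protein, had 3.45 ± 0.15. Icam4 (2.16 ± 0.16) and Stom, stomatin (2.02 ± 0.13), also rose. With the mutant 1 was higher, Slc4a1 at 3.58 ± 0.15 (adjusted p 7.65e-08), and 0 were lower; 2 were higher without empty vector replicate 3. Slc4a1 was the 1 gene called with the mutant among these 14 and the 8 skeleton genes, and its mutant libraries stood at 188, 221 and 193 CPM, above the empty vector libraries (14.8 to 18.9 CPM) and below the wildtype libraries (1242 to 1671 CPM). Against the wildtype, 10 were lower with the mutant and 0 were higher (12 with an unadjusted p under 0.05).

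Of 21 regulators of actin, 18 were tested, and with the wildtype 6 fell, 1 rose and 11 were not called, where 11.9% of all genes were lower and 11.4% higher. Their median log2 fold change was −0.35, against −0.04 over all genes. Gsn, gelsolin, which severs and caps actin filaments, fell most (−2.57 ± 0.20, adjusted p 1.44e-06), from 45.8, 55.2 and 54.9 CPM to 6.96, 12.2 and 7.29 CPM. Nckap1l, a WAVE complex subunit of blood cells (−0.68 ± 0.15), Twf2, a twinfilin (−0.59 ± 0.14), and Was, the Wiskott-Aldrich syndrome protein (−0.56 ± 0.13), also fell. Dstn, the actin-depolymerizing factor destrin, rose (0.74 ± 0.19, adjusted p 0.0147). The falls numbered 3 without wildtype replicate 1. With the mutant 0 were called against the empty vector (0 in DESeq2, 5 with an unadjusted p under 0.05), though 3 were lower without empty vector replicate 3, namely Dstn, Capza1 and Capza2. Against the wildtype 7 were higher with the mutant, led by Gsn (3.15 ± 0.20), and 1 was lower, Dstn (−1.24 ± 0.20); 4 were higher without mutant replicate 1. Capza1, Capza2 and Capzb are the general capping protein subunits, which cap the same filament end as adducin. Against the empty vector they had −0.44 ± 0.17, −0.57 ± 0.22 and −0.12 ± 0.11 with the wildtype, in that order, and −0.37 ± 0.17, −0.52 ± 0.22 and −0.02 ± 0.11 with the mutant, none of which was called in edgeR with all libraries and the low-count filter (adjusted p 0.0769, 0.0771 and 0.451, then 0.388, 0.37 and 0.939).

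**Figure D4:**
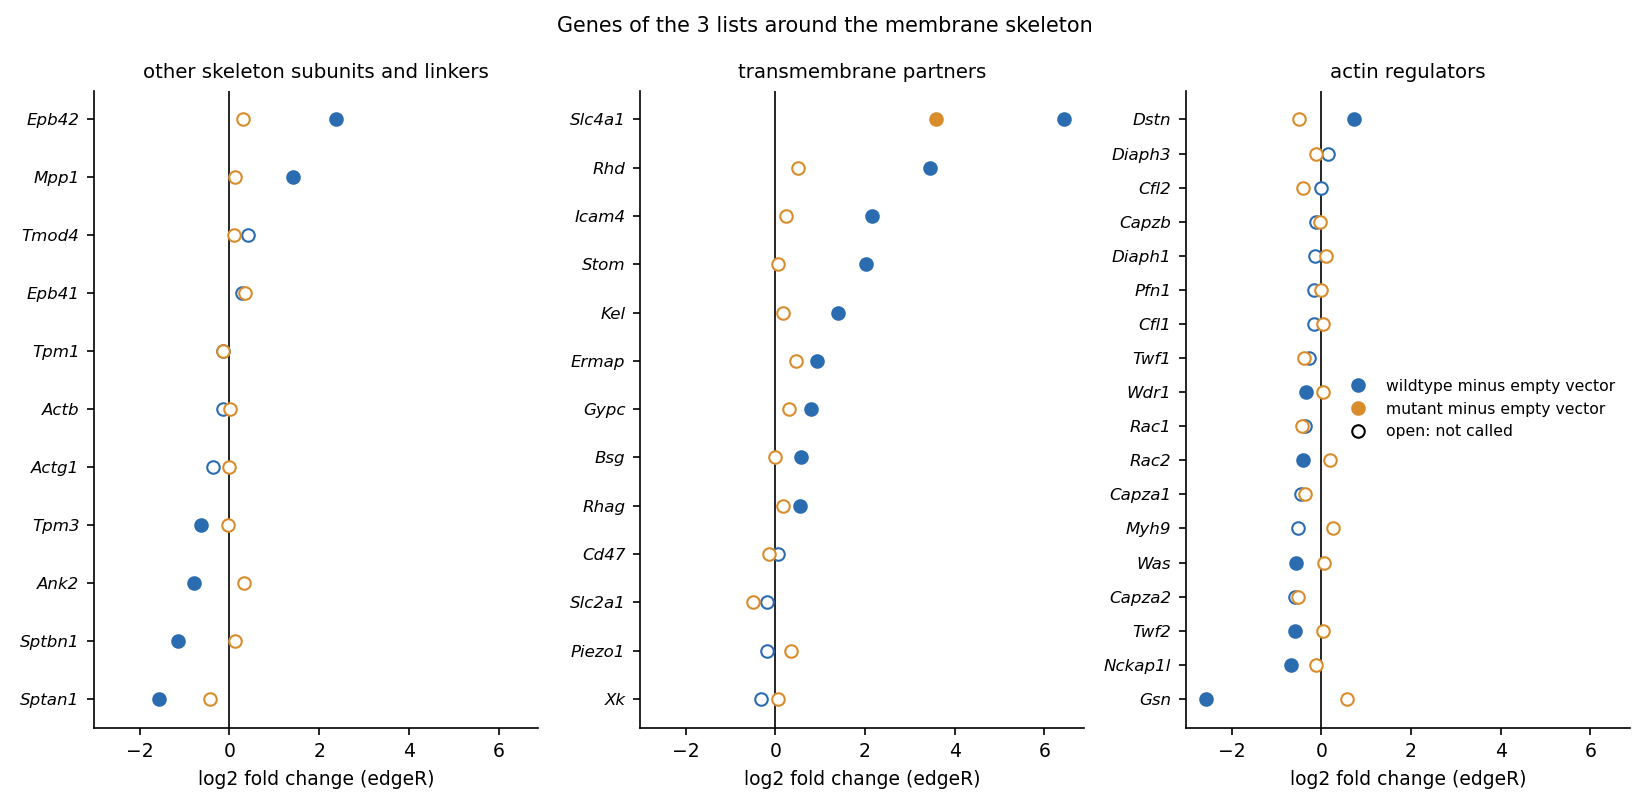
Log2 fold change against the empty vector (horizontal axis, edgeR) for tested genes of the 3 lists, with wildtype and mutant in different colours; filled points are called and open points are not. In the left panel the wildtype points run from −1.56 for Sptan1 to 2.38 for Epb42, and the single filled mutant point is Slc4a1 in the middle panel.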

How the data were processed

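The authors deposited raw read counts per gene, in 1 table for 9 libraries. Libraries were made from total RNA by Smart-seq2, which keeps no strand, with Nextera-based indexing, per the labels' protocols. Reads were aligned with STAR to GRCm38.p4 and hg19, per the submitters' processing notes; which version, counting tool and annotation were used is not given in the sources used. The human GATA1 row was left out of fits and library sizes.

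The test was edgeR's (version 4.0.16, R 4.3.3; TMM factors, filterByExpr with the groups, glmQLFit and glmQLFTest with 1 mean per group over all 9 libraries, 6 residual degrees of freedom), with Benjamini-Hochberg adjustment over 9978 genes. A gene was called at an adjusted p under 0.05. SEs were taken as |log2 fold change| divided by the root of F and are approximate, as are the 95% intervals made from them. P-values reflect only the spread among the libraries, which the labels do not tie to separate cultures. A floor of 3 counts was 0.170 to 0.289 CPM in single libraries, covering counting error only. DESeq2 1.42.0 was an alternative. Positions, exon lengths and overlaps are from GENCODE M21 on GRCm38. Ratios used counts plus 0.5, and correlations log2 CPM with a prior count of 2.

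The members and the gene lists were chosen with earlier results of these data known. Named were the 8 members, the 5 tested genes with the smallest p from each of 3 lists per comparison, and the nearest gene to each member by correlation, leaving out Gm, Rik and unnamed genes; overlapping genes, Epb41, the 3 capping protein subunits and the remaining called linkers were added by name. Some genes that the rule names are not reported here. The sample titles give replicate numbers but state no pairing, and the main fit used none. Same-numbered deviations of mutant and wildtype libraries correlated at 0.17, 0.29 and 0.53 over genes. Mutant replicate 1 correlated more with wildtype replicate 2 (0.24) than with wildtype replicate 1, and mutant replicate 2 correlated at 0.22 with wildtype replicate 1. Whether the libraries are paired therefore stays unknown. Same-numbered deviations of the empty vector libraries correlated negatively with those of either GATA1 group (−0.44 to −0.20).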

Additional observations from a re-analysis of the deposited data

How the results depend on the processing

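The wildtype calls of the 8 skeleton genes kept their side of the threshold and their direction under 17 alternatives (other scaling, other filters, DESeq2, 6 libraries only, the replicate block, each library left out, mutant replicates 1 and 2 summed), and the mutant against wildtype calls under 18, except that of Add1. The mutant against empty vector was where processing mattered: 4 were higher with no low-count filter, in DESeq2 and without empty vector replicate 3, and 1 was lower with no low-count filter and without empty vector replicate 3; over single libraries left out the counts ran from 0 to 4 and from 0 to 1. The cause was not tested. With no filter, calls over all genes in that comparison rose to 119 higher and 296 lower, with DESeq2 to 63 and 39; with the replicate block they were 12 and 2, with mutant replicates 1 and 2 summed 9 and 2, and with library totals 3 were lower. With single libraries left out they ran from 5 to 227 and from 2 to 610. For the wildtype against the empty vector they ran from 732 to 1614 higher and from 655 to 1641 lower, and for mutant against wildtype from 693 to 1581 and from 778 to 1577, with 779 and 772 when mutant replicates 1 and 2 were summed. The replicate block in all 9 libraries changed no call of the 8 genes. The log2 fold change of Add2 in mutant against empty vector ran from −0.130 to 0.0914 with single libraries left out and changed sign without mutant replicate 3 (0.07) and without empty vector replicate 3 (0.0914), uncalled in each. The fall of Twf2 with the wildtype was lost without wildtype replicate 1 (adjusted p 0.0622). Of the linkers, 3 to 5 fell with the wildtype over the alternatives, and of the actin regulators 3 to 9. With library totals in place of TMM factors, the median of all genes shifted by −0.09 for wildtype against empty vector and by 0.11 for mutant against wildtype. With no low-count filter 3 transmembrane partners and 1 linker were higher with the mutant, and 1 actin regulator was higher and 2 lower. Transmembrane partners higher in mutant against wildtype numbered 2 with no filter or with the replicate block in those libraries, where 3 actin regulators were lower, and 1 in 4 other fits. The paralog ratios moved by less than their spread with 2 counts added and kept their sign with any library left out. With the longest transcript as length, levels per kilobase were higher: with the empty vector Ank1 3.18, Dmtn 0.0675, Add1 27.6, Add2 22.5, Add3 20.7, Tmod1 2.43, Tmod3 29.7; with the mutant Sptb 27.8, Ank1 5.16, Dmtn 0.224, Add1 33.5, Add2 22, Add3 21.9, Tmod1 4.09, Tmod3 19.3; with the wildtype Sptb 67, Ank1 13.1, Dmtn 18.7, Add1 40.4, Add2 51.1, Add3 10.3, Tmod1 17.4, Tmod3 36.5 CPM per kb. Depth limits Dmtn, which had 16 counts over the empty vector group and 61 over the mutant group.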
